A study of Mus musculus with 6 samples.

Results

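RNA of cells sorted as megakaryocytes (MKs) from the bone marrow (BM) of *Becn1*f/f mice was sequenced in 3 libraries, which are 3 of the 6 libraries of the series and the only ones described here. *Becn1*f/f mice carry loxP-flanked *Becn1*, the gene of the autophagy protein Beclin 1, and no Cre recombinase, so the gene is floxed but not deleted by design. The 3 other libraries come from *Becn1*f/f;*Pf4-iCre* mice, carry the same floxed allele and were not compared. The mice were 3 months old, the cells were taken by fluorescence-activated cell sorting (FACS), and the study identifies MKs in BM by CD41 staining, although the gate used for these RNA libraries is not given in the sources used here. The 3 libraries were chosen by their genotype label. The labels give the replicate numbers 1, 2 and 3, and do not say whether a library is 1 mouse or a pool.

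MKs are the large polyploid cells of BM that shed platelets. They are defined by the adhesion receptors of the platelet surface, among them the integrin that pairs CD41 (*Itga2b*) with CD61 (*Itgb3*) and the glycoprotein Ib-IX-V complex, and by the chemokines stored in platelet alpha granules. CD41 is not confined to mature MKs, since early hematopoietic progenitors and mast cell precursors can carry it, and platelets stick to leukocytes. Granulocytes, which fill much of the marrow, are known by abundant proteins. These are myeloperoxidase and elastase in the primary granules of neutrophil precursors, calprotectin and lactoferrin later on, and major basic protein in eosinophils.

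The estimated read counts, which need not be whole numbers, summed to 16496379, 17097858 and 17138006 in libraries 1, 2 and 3. Levels are given as FPKM, the fragments of a gene scaled for its length and for library size. Of the 16579 genes in the table, 10516 (63.4%) had an FPKM of at least 1 in every library, named detected below, 13973 were above 0 in every library and 671 were at 0 in all 3. The 3 libraries had Pearson correlations of 0.991 to 0.994 on log2(FPKM + 1) across the 16579 genes, which share library depth and gene length and are not independent replicates. Library 1 stood apart from the others: of the 6762 genes with a mean FPKM of at least 10, 45 were at least 2-fold above both other libraries in library 1, against 2 in library 2 and 1 in library 3. At least 2-fold below both others were 12 genes in library 1, 1 in library 2 and 8 in library 3.

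The label was checked against its defining gene. *Itga2b* was present in every library, at 57.0 FPKM in library 1, 47.9 in library 2 and 62.0 in library 3 (mean 55.7 ± 7.14 SD, n = 3), and ranked 1766 of all genes. *Mpo*, which encodes myeloperoxidase, stood at 1671, 1442 and 1853 FPKM (mean 1656 ± 206 SD, n = 3) and ranked 41. *Prg2*, which encodes eosinophil major basic protein, stood at 8835, 4434 and 3634 FPKM (mean 5635 ± 2801 SD, n = 3) and ranked 5. Every value of either granule gene was far above every value of *Itga2b*, and the ranges did not overlap. Within a library the FPKM of *Mpo* was 29.3, 30.1 and 29.9 times that of *Itga2b*, a ratio that barely moved between libraries, whereas that of *Prg2* was 155, 92.5 and 58.6 times that of *Itga2b*. The RNA carried the transcript of CD41 and held these granulocyte transcripts at higher levels, so the samples are named the control sorted libraries below. In bulk RNA, a small number of cells rich in a transcript and many cells with little of it cannot be told apart.

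**Figure D1:**
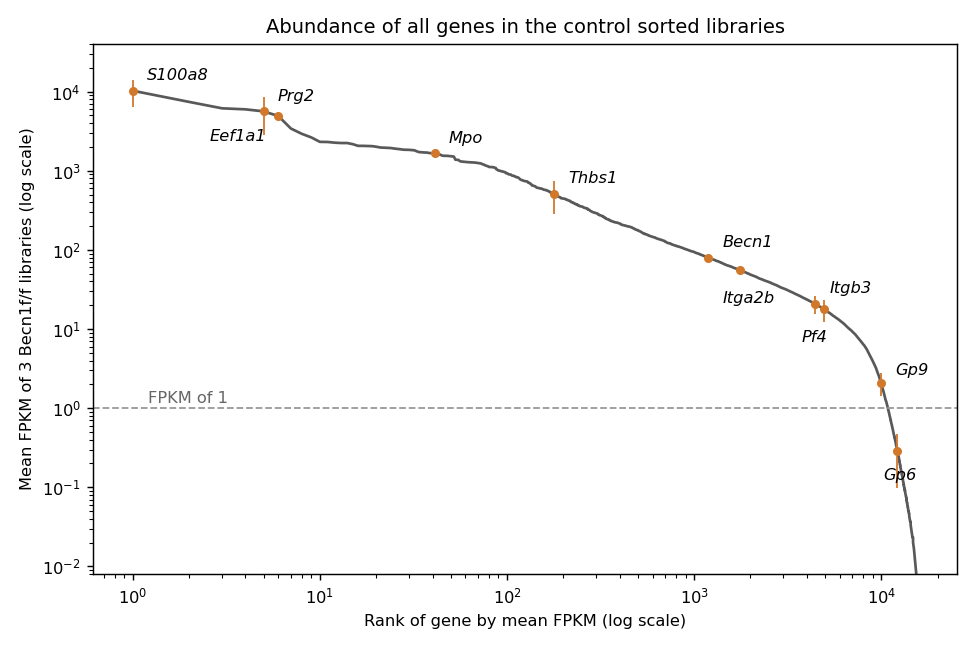
Mean FPKM of every gene in the 3 *Becn1*f/f libraries (vertical log axis) against its rank (horizontal log axis), with named genes as points and error bars of 1 SD (n = 3). *S100a8* and *Prg2* lie at ranks 1 and 5, *Mpo* at 41, *Itga2b* at 1766 and the platelet glycoprotein gene *Gp9* at 9962, close to the line at an FPKM of 1.

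The sequence around the transcription start is printed for 5 genes that mark the contrast: *Itga2b* and *Pf4* for the MK lineage, *Mpo* and *S100a8* for neutrophils, and *Epx*, eosinophil peroxidase, whose gene lies near *Mpo* on chromosome 11 with 2 coding genes between them in the RefSeq order. Each window runs from 250 bases before to 50 bases after the annotated start, 5′ to 3′ on the strand of the gene, from RefSeq on GRCm38.p6. The windows are *Itga2b* at chr11:102469834-102470133, minus strand, *Pf4* at chr5:90772185-90772484, plus strand, *Mpo* at chr11:87793534-87793833, plus strand, *Epx* at chr11:87875487-87875786, minus strand and *S100a8* at chr3:90668821-90669120, plus strand. Capitals mark matches to 4 short motifs: AGATAA or TGATAA, bound by GATA factors; AGGAAG, bound by ETS factors such as PU.1; TTGCNNAA, bound by C/EBP factors, each of them on either strand; and TATAAA, the TATA box, on the printed strand alone.
Itga2b: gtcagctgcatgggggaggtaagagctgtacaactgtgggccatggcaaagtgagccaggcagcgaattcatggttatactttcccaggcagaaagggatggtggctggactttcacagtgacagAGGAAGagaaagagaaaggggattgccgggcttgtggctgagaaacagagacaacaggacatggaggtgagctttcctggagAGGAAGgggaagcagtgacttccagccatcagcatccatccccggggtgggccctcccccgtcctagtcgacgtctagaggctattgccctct
Pf4: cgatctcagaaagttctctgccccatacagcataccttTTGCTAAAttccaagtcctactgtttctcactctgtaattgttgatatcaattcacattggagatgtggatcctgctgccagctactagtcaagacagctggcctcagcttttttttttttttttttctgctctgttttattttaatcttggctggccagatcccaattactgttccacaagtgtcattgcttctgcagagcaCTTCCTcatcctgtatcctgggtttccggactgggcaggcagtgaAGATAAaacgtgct
Mpo: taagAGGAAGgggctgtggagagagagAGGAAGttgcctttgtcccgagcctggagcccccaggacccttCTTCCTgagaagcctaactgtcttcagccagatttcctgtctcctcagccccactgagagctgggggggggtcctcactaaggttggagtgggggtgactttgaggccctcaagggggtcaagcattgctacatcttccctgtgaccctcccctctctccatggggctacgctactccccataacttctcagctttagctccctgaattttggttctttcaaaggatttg
Epx: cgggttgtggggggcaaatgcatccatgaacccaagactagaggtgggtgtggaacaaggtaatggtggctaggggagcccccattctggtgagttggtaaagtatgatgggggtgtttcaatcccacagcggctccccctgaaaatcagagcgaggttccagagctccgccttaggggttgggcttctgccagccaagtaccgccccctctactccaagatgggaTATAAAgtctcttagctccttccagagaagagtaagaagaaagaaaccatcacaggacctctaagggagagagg
S100a8: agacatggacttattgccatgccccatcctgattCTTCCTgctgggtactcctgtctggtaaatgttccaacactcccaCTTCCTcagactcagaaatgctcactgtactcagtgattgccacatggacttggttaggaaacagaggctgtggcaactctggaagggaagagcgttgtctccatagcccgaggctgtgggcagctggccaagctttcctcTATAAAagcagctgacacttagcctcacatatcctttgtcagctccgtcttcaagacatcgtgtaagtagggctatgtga
The *Itga2b* window held 2 ETS matches and no GATA match, and the *Pf4* window held 1 GATA match, 1 ETS match and 1 C/EBP match. The *Mpo* window held 3 ETS matches. *S100a8* held 2 ETS matches and a TATA box, and *Epx* held a TATA box alone. No 2 matches overlapped in these windows. Among the 32851 promoter windows of 27025 genes in the same table, 18.6% held the GATA motif, 35.4% the ETS motif, 10.8% the C/EBP motif and 8.32% the TATA box, so single matches are common and are given as a description of the letters only. *Lpo*, the lactoperoxidase gene next to *Mpo*, stood at 0.20, 0.090 and 0.090 FPKM.

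The 20 highest genes held 14.4%, 11.9% and 10.8% of the summed FPKM of libraries 1, 2 and 3 (mean 12.4% ± 1.86 SD, n = 3). *S100a8* and *S100a9*, neighbours on chromosome 3 that encode the subunits of calprotectin, led the order. *S100a8* stood at 14716, 8818 and 7274 FPKM, and *S100a9* at 9370, 6691 and 6191. The lysozyme gene *Lyz2*, a product of neutrophils, monocytes and macrophages alike, followed at 5909, 7233 and 5320 FPKM, and was the only gene of the first 3 that was not highest in library 1. *Tmsb4x*, the actin-binding thymosin beta-4, was next, then *Prg2*. *Ngp* (neutrophilic granule protein), *Retnlg* (resistin-like gamma) and *Ear1* (an eosinophil-associated ribonuclease) also fell in the first 20, with mean FPKM of 3419 ± 1275, 2319 ± 712 and 2053 ± 980 (SD, n = 3).

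The others were genes that most cells use. They were the translation genes *Eef1a1* (elongation factor 1 alpha) and *Tpt1* (translationally controlled tumour protein), *Actg1* (gamma actin), *Ftl1* (ferritin light chain), *Ppia* (cyclophilin A), *Gapdh* (glycolysis), and the ribosomal protein genes *Rpl23a*, *Rpl28*, *Rps12*, *Rps9*, *Rpl41* and *Rps2*. No gene restricted to MKs or platelets was among them. The 81 cytosolic ribosomal protein genes together held 15.8%, 17.14% and 12.6% of summed FPKM, and 79 of them were lowest in library 3. This set was taken from the gene symbols after the values were seen. Library 3 also had the lowest summed FPKM over all genes. Of the other genes among the 20 highest, all but *Ngp*, *Retnlg* and *Gapdh* were lowest in library 3 as well. The share of all genes that were lowest in library 3 was not worked out, so the count of 79 does not set ribosomal protein genes apart.

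The order by FPKM leans on short transcripts. The length by which a count was divided can be worked out from a gene's count and FPKM; its median was 413 bases for the 20 highest genes and 2497 bases for all detected genes, and 11 of the 20 were under 500 bases against 4.57% of detected genes. For *S100a8* this length was 84.5, 101 and 94.0 bases in the 3 libraries, so a modest count gave a very large FPKM. The length was smallest in library 1, as it was for *S100a9* at 199, 221 and 212 bases and *Rpl41* at 131, 151 and 143. Library 1 therefore exceeded the others in *S100a8* by more in FPKM than in estimated counts, which were 20513, 15299 and 11722. By share of estimated counts, *Eef1a1* led with 0.724% of counts, followed by *Actg1*, *Lyz2*, *Fn1* (fibronectin), *Psap* (prosaposin), *Mpo*, *Flna* (filamin A), *Actb* (beta actin), *Eef2* (elongation factor 2) and *Prg2*. Counts of *Eef1a1*, *Actg1* and *Actb* were not whole numbers, so their levels are uncertain to the extent that reads were divided between copies. The 20 genes with the most counts held 6.69%, 6.65% and 6.37% of counts, and 6 of them were also among the 20 highest by FPKM. *Mpo* held 0.369%, *Prg2* 0.292%, *S100a8* 0.0941% and *Itga2b* 0.0174% of counts on average, so *Itga2b* was below the other 3 genes by either measure. *S100a8* was not above *Mpo* or *Prg2* by counts.

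Abundance covered a wide range. The median gene had a mean FPKM of 5.72 over all genes and 16.1 over detected genes, and the middle 90% of detected genes ran from 2.04 to 166, an 81.1-fold range. A mean FPKM of at least 10 was reached by 6762 genes, of at least 100 by 924 (5.57%) and of at least 1000 by 91 (0.549%). Of the summed FPKM, 50% came from the 341 highest genes, and 50% of counts came from 952 genes. Nearly all genes of the table are protein-coding: of the 16530 matched by gene ID to RefSeq, 16434 were, of which 10473 were detected, and 9 of 63 long noncoding RNA genes were detected.

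Lineage make-up was read from 17 lists of marker genes, each summarised by its share of summed FPKM and by the median FPKM of its members. The median over all genes, 5.72 FPKM, and the 63.4% of all genes that were detected are the background for these values. The largest share went to the genes of neutrophil secondary granules and late neutrophils, at 6.40%, 4.09% and 4.67% (mean 5.05% ± 1.202 SD, n = 3). Without *S100a8* this list held 3.98%, 2.66% and 3.31%. The eosinophil list held 2.86%, 1.38% and 1.44% (mean 1.89% ± 0.839), the list for neutrophil primary granules and their precursors 1.12%, 1.02% and 1.23% (mean 1.12% ± 0.107), and the monocyte list 0.777%, 0.864% and 0.841% (mean 0.827% ± 0.0449). The list of genes restricted to MKs and platelets held 0.151%, 0.0809% and 0.0945% (mean 0.109% ± 0.0374), lower than each of those 4 in every library. Shares of lists depend on how many genes a list has and on how long its transcripts are, and they are not shares of cells. Members of a list, those of the late neutrophil list included, can also be made by cells of another lineage.

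**Figure D2:**
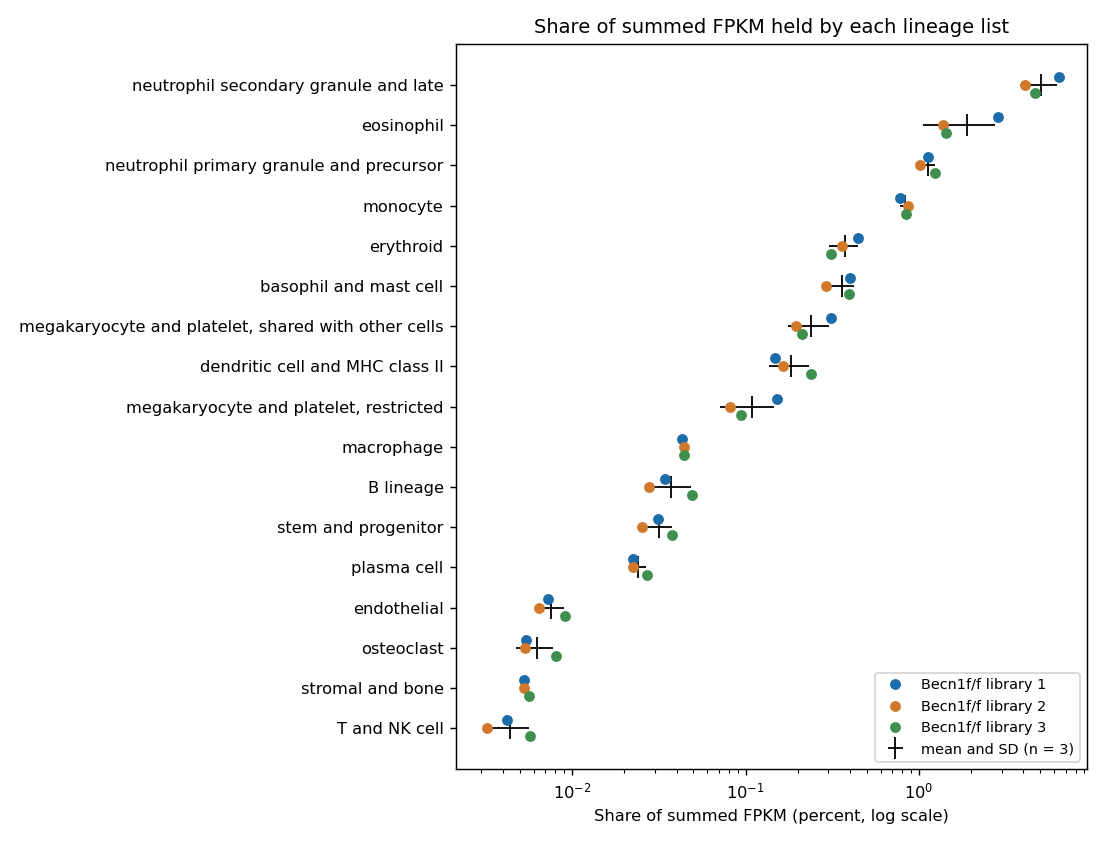
Share of summed FPKM (percent, log axis) held by each of 17 lineage lists, with 1 point per *Becn1*f/f library and a cross for the mean and SD (n = 3). The late neutrophil list is highest at a mean of 5.05% and the T and NK cell list lowest at 0.00440%, and the MK-restricted list lies at 0.109%.

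The 20 genes restricted to MKs and platelets were all measured, and 16 of them were detected, but their median level was 2.13 FPKM and only 5 were above the median gene. Most of the share of this list belonged to *Thbs1*, which encodes thrombospondin-1, an adhesive alpha-granule protein that monocytes and macrophages also make. It stood at 783, 387 and 374 FPKM. Without it, the list held 0.0226%, 0.0183% and 0.0245% of summed FPKM (mean 0.0218% ± 0.00321 SD, n = 3), and library 1 was no longer the highest.

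After *Thbs1* and *Itga2b* came *Itgb3*, the partner of CD41, at 25.4, 14.8 and 22.7 FPKM. *Pf4*, platelet factor 4, whose regulatory sequence drives the Cre of the other genotype, stood at 14.0, 24.1 and 15.5 FPKM, which rests on 60, 117 and 73 estimated counts. Its neighbour *Ppbp*, pro-platelet basic protein, stood at 13.02, 2.63 and 6. Both are among the most abundant transcripts of platelets, and here each was below *Itga2b* in every library.

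The remaining 15 genes of the list were lower. *Tubb1*, the beta-tubulin of the platelet ring, stood at 4.45, 1.00 and 1.69 FPKM. *Vwf*, von Willebrand factor, stood at 1.85, 2.40 and 2.79. The subunits of the von Willebrand factor receptor were near the detection limit: *Gp9* at 1.36, 2.65 and 2.29, *Gp1ba* at 1.74, 1.13 and 1.77, *Gp5* at 0.880, 1.05 and 1.36, and *Gp1bb* at 1.00, 1.02 and 0.930. *Gp6*, the platelet collagen receptor, and *Mpig6b*, an inhibitory receptor of MKs, were below 1 in every library, with 14, 4 and 10 and with 10, 3 and 5 counts. In FPKM, *Itga2b* was 41.9, 18.1 and 27.1 times *Gp9* in the 3 libraries.

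A second list held 20 genes that MKs share with other cells. Of these 14 were detected, with a median of 3.17 FPKM. The high members were broadly expressed: *Cd63*, a tetraspanin of granules and lysosomes (490, 310 and 255 FPKM), *Rap1b*, a small GTPase of integrin activation (408, 311 and 278), *Plek*, pleckstrin (542, 202 and 174), and *Fermt3*, kindlin-3 (151, 181 and 182). *Cd63*, *Rap1b* and *Plek* were highest in library 1 and *Fermt3* lowest there. Members closer to platelets were low, among them *Selp*, P-selectin, at 2.73, 2.82 and 2.73 FPKM, and *Mmrn1*, multimerin, at 1.18, 1.19 and 1.57.

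**Figure D3:**
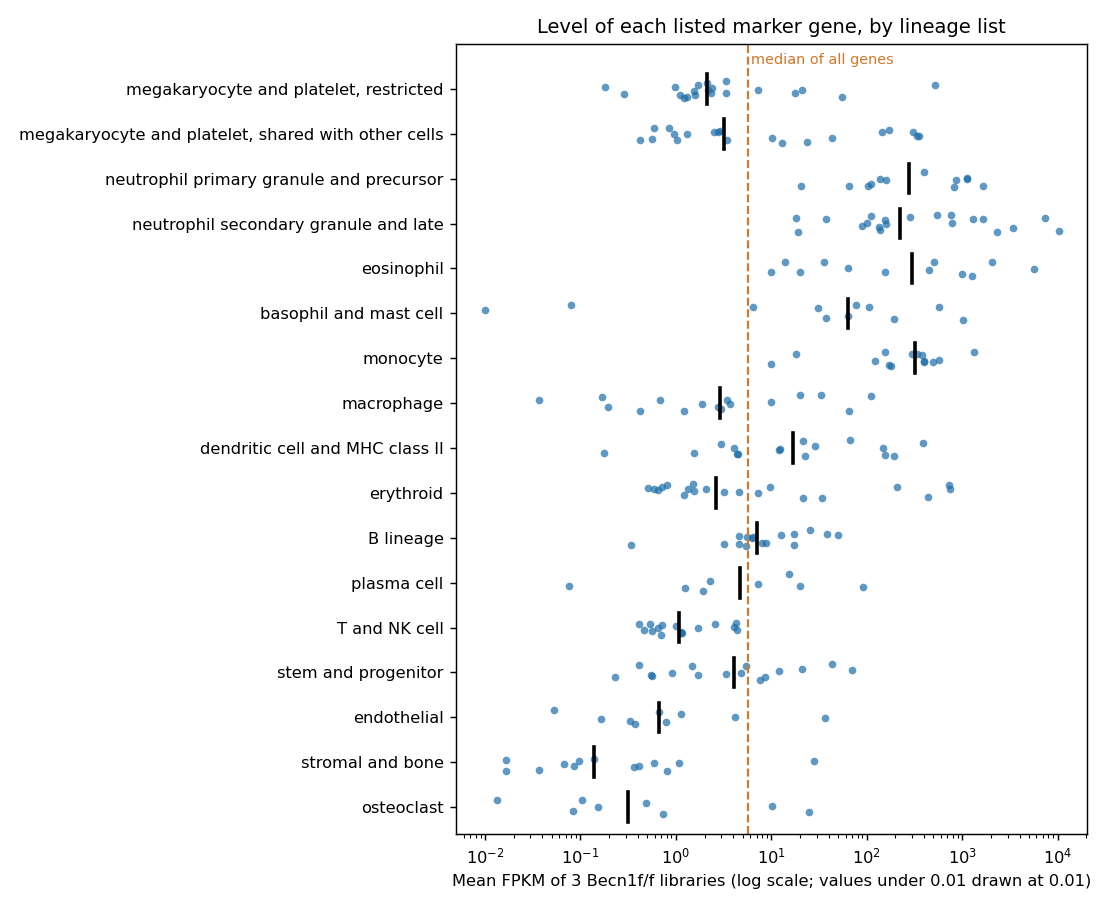
Mean FPKM over the 3 *Becn1*f/f libraries (log axis) of every measured gene of the 17 lineage lists, with 1 point per gene, a black bar at the list median and a dashed line at the median of all genes (5.72). The MK-restricted genes centre on 2.13 FPKM with *Thbs1* far to the right, whereas the neutrophil, eosinophil and monocyte lists centre between 220 and 318.

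The list for neutrophil primary granules and their precursors was expressed as a whole. All 12 genes were detected, 10 of 12 had a mean of at least 100 FPKM, a level reached by 5.57% of all genes, and the median was 279.6. Beside *Mpo*, the list was led by *Srgn*, serglycin, the proteoglycan that packs granule proteins (1573, 918 and 861 FPKM), and by *Elane*, neutrophil elastase (1056, 1119 and 1168). *Calr*, calreticulin, followed, and *Prtn3*, proteinase 3, the neighbour of *Elane* on chromosome 10, stood at 715, 977 and 795. *Srgn* and *Calr* are also made by other cells, so they do not mark neutrophil precursors alone. *Srgn* was highest in library 1, whereas *Mpo* and *Elane* were highest in library 3. *Elane* was 0.632, 0.776 and 0.630 times *Mpo* in the same library. Library 1 was at 0.995 times the mean of the others in the share of this list, but its members differed: the coefficient of variation was 0.124 for *Mpo* and 0.354 for *Srgn*, and library 1 over the mean of the others ran from -0.31 to 0.82 on the log2 scale.

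All 20 genes of secondary granules and late neutrophils were detected, 15 of them at a mean of at least 100 FPKM. After *S100a8*, *S100a9*, *Ngp* and *Retnlg* came *Chil3*, a chitinase-like protein (1449, 1714 and 1794 FPKM), *Camp*, cathelicidin (1762, 1152 and 1015), *Ltf*, lactoferrin (904, 592 and 869), and *Lcn2*, lipocalin-2 (809, 657 and 832). The members ran from *S100a8* down to *Cxcr2* and *Stfa2l1*. *Ly6g*, the surface antigen used to sort neutrophils, stood at 45.8, 29.1 and 37.8, and *Cxcr2*, a chemokine receptor of blood neutrophils, at 11.8, 14.6 and 31.1. In FPKM, library 1 was the highest for 12 of the 20 genes and the lowest for 3. By share of estimated counts the list held 1.66%, 1.22% and 1.41%, a smaller excess of library 1 than in FPKM.

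Eosinophil genes varied most between libraries. All 12 were detected, 11 of 12 were highest in library 1 and 0 were lowest there, and the share of the list in library 1 was 2.03 times the mean of the other libraries. *Epx* stood at 765, 363 and 374 FPKM, *Alox15*, an arachidonate lipoxygenase, at 694, 267 and 383, and *Siglecf*, the lectin that marks mouse eosinophils, at 51.1, 22.3 and 34.6. The receptors *Ccr3* (22.1, 13.5 and 25.0) and *Il5ra* (14.0, 5.58 and 10.1) were lower, and *Ccr3* was the exception that was highest in library 3. The ribonuclease genes *Ear1*, *Ear2* and *Ear6* were at 3184, 1953 and 1584 FPKM in library 1, 1512, 963 and 727 in library 2, and 1462, 884 and 707 in library 3. They are near-identical copies of a gene family, and the counts of *Ear1*, *Ear2* and *Ear10* were not whole numbers, so reads were divided between members and the level of each is uncertain. *Prg2* was 11.6, 12.2 and 9.71 times *Epx*, a ratio that moved far less between libraries than either gene did.

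Basophil genes were abundant, and 2 genes of connective tissue mast cells were at or near 0. Of 14 genes listed, 11 were measured, 9 were detected, and *Tpsb2*, *Tpsab1* and *Mcpt2* were not analysed here. *Prss34*, a serine protease of basophils, stood at 1128, 886 and 1069 FPKM, and *Mcpt8*, a protease of mouse basophils, at 693, 488 and 519. *Hdc*, which makes histamine, stood at 260, 157 and 166, and *Cpa3*, carboxypeptidase A3, at 122, 82.1 and 112. *Cma1*, a connective tissue mast cell chymase, stood at 0.160, 0 and 0.080, and *Mcpt4* had 0 counts in every library, which allows up to 0.182, 0.175 and 0.175 counts per 1000000 for counting error only.

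All 14 monocyte genes were detected, with a median of 317.8 FPKM. *Ly6c2*, the surface antigen of inflammatory monocytes, stood at 1237, 1579 and 1151, with counts that were not whole numbers. *Fn1* stood at 466, 608 and 647, *F13a1*, coagulation factor XIII A chain, which MKs also store, at 436, 497 and 549, and the nuclear receptor *Nr4a1* at 532, 438 and 229. *Csf1r*, the receptor of macrophage colony-stimulating factor, stood at 99.3, 138 and 129, and *Ccr2* at 171, 188 and 184. By share of estimated counts this list held 1.05%, 1.26% and 1.196%, which was above the eosinophil list in libraries 2 and 3 and slightly below it in library 1. It was also above the late neutrophil list in library 2, at 1.26% against 1.22% of counts, and below it in library 1 (1.66%) and library 3 (1.41%).

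Macrophage genes were much lower, with 11 of 16 detected and a median of 2.87 FPKM. *Cd68*, a lysosomal glycoprotein of phagocytes (88.0, 144 and 102 FPKM), and *Adgre1*, the F4/80 antigen that eosinophils also carry (83.5, 49.3 and 61.6), led the list. *Hmox1*, heme oxygenase, and *Vcam1* followed. *Vcam1*, an adhesion molecule of erythroblastic island macrophages, was at 35.5 FPKM in library 1 and at 11.2 and 12.7 in the others. *Timd4*, *Marco*, *Mertk* and *Spic*, receptors and a regulator of resident macrophages, were below 1 in every library. Other members were detected at low levels, among them *C1qa* at 2.09, 3.76 and 4.56, *Axl* at 1.69, 3.64 and 3.59 and *Slc40a1* at 10.96, 7.44 and 11.25. *C1qb*, *C1qc*, *Mrc1* and *Cd163* were also detected, so the genes below 1 do not show that such cells were absent.

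For dendritic cells and MHC class II, 15 of 16 genes were detected and the median was 16.9 FPKM. *Cd74*, the invariant chain, stood at 317, 337 and 503, *Irf8* at 134, 217 and 232, *H2-Aa* at 150, 146 and 169 and *H2-Ab1* at 131, 148 and 167. The class II genes also serve B cells and monocytes. *Xcr1*, which marks cross-presenting dendritic cells, was the only member of the list below 1 in every library. The dendritic cell genes *Clec9a*, at 2.94, 4.36 and 5.72, and *Batf3*, at 3.01, 3.02 and 2.94, were detected at low levels, so *Xcr1* alone does not show that such cells were absent. *Siglech*, a lectin of plasmacytoid dendritic cells, stood at 24.2, 33.1 and 29.0.

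In FPKM, erythroid signal was almost all globin, whose counts were divided by short lengths, at means of 245 to 323 bases. By share of counts the list held 0.0876%, of which *Hbb-bs* held 0.0236%, *Hba-a1* 0.0180% and the non-globin gene *Tfrc* 0.0158%. The list of 20 genes had 14 detected genes and a median of 2.64 FPKM, and it held 0.447%, 0.362% and 0.310% of summed FPKM. *Hba-a1* stood at 887, 763 and 566, *Hbb-bs* at 953, 729 and 518, *Hba-a2* at 531, 465 and 312 and *Hbb-bt* at 250.95, 200.01 and 165. All 4 were highest in library 1 and lowest in library 3. The pairs are near-identical copies with counts that were not whole numbers, so their separate levels are uncertain. Of the list, 8 genes were above the median gene, the 4 globin genes and 4 others. The transferrin receptor gene *Tfrc*, which dividing cells also use, stood at 37.7, 28.5 and 36.9 and *Car2*, a carbonic anhydrase, at 23.5, 21.6 and 20.05. *Alas2*, the first enzyme of erythroid heme synthesis, stood at 11.9, 7.85 and 9.29, and *Epor*, the erythropoietin receptor, *Epb42* and *Ank1*, proteins of the red cell membrane skeleton, were below 1 in every library.

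Lymphoid lists held smaller shares of summed FPKM than the erythroid list, at means of 0.0372% for B lineage, 0.0240% for plasma cell and 0.00440% for T and NK cell genes. Of the B lineage list, 15 of 16 genes were detected with a median of 7.16 FPKM. *Cd79a*, a chain of the B cell receptor, stood at 44.0, 39.7 and 67.4, and *Cd79b*, *Cd72* and *Vpreb3* followed, all highest in library 3. *Rag2*, of the recombinase, was below 1. In the plasma cell list *Xbp1*, a regulator of secretory cells that other cells use too, led at 80.7, 102 and 92.9, *Jchain*, which joins immunoglobulin polymers, stood at 25.0, 14.9 and 20.04, and *Tnfrsf17* was below 1. Of the T and NK cell list, 5 of 16 genes were detected, none was above the median gene, and the highest, *Il2rb*, *Klrd1*, *Lck* and *Gzma*, had means between 2.57 and 4.32 FPKM.

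The list of stem and progenitor genes had 11 of 16 detected genes and a median of 4.09 FPKM. *Myb*, needed for progenitor growth, stood at 77.5, 57.7 and 76.6, *Cd34* at 47.6, 36.2 and 47.3, and *Kit*, the stem cell factor receptor, at 19.8, 18.04 and 25.8. *Mecom*, *Hoxa10*, *Procr* and *Slamf1*, which mark early stem cells, were below 1 in every library.

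Genes of endothelium, stroma and bone, osteoclasts and other organs held little of the summed FPKM. Of the endothelial list, 2 of 9 measured genes were detected, *Pecam1* (37.6, 31.4 and 40.7 FPKM), which leukocytes and platelets also express, and *Tie1* (3.82, 4.45 and 4.17). *Kdr*, *Emcn*, *Stab2* and *Cldn5* were below 1 in every library. Of the stromal and bone list, 1 of 13 measured genes was detected, the transcription factor gene *Runx2* at 29.5, 27.0 and 27.7. *Col1a1* and *Col1a2*, the chains of type I collagen, were at 0.410 and 0.120 FPKM in library 1, 1.48 and 1.33 in library 2 and 0.560 and 0.330 in library 3. Among osteoclast genes, *Nfatc1* (24.0, 21.9 and 28.3) and *Acp5*, the gene of tartrate-resistant acid phosphatase (7.67, 9.46 and 13.2), were detected, and *Ctsk*, *Calcr*, *Dcstamp* and *Ocstamp* were below 1. All 6 measured genes of other organs, such as *Alb* and *Ckm*, were below 1 in every library. *Sox17*, *Acan* and 6 genes of other organs were not analysed here.

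All 18 proliferation genes were detected, with a median of 75.8 FPKM, and all were above the median gene. *Pcna*, the sliding clamp of replication, stood at 386, 371 and 310, *Top2a*, topoisomerase II alpha, at 184, 201 and 212, *Mki67* at 134, 144 and 168, and *Mcm3*, of the replicative helicase, at 119, 139 and 131. Library 1 was the lowest for 15 of the 18 genes, and its share of summed FPKM for this list was 0.849 times the mean of the others. MKs replicate DNA without dividing and granulocyte precursors divide, and these genes do not separate the lineages.

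Among 22 transcription factor genes of blood formation, 20 were detected. The highest by mean were *Cebpb* at 221, 364 and 231 FPKM, *Spi1*, which encodes PU.1, at 230, 260 and 242, *Irf8* as above and *Ikzf1*, which encodes Ikaros, at 115, 97.1 and 115. The factors of MK differentiation had lower means than these, but other myeloid factors lay in the same range as the MK factors. *Cebpe* stood at 66.8, 62.8 and 61.7, *Cebpa* at 48.4, 62.8 and 76.9, *Cebpd* at 27.35, 32.3 and 28.9 and *Gfi1* at 9.60, 8.36 and 13.9. *Nfe2*, needed for platelet release and also expressed in granulocytes, stood at 78.4, 103 and 107, *Fli1* at 36.2, 34.7 and 36.9, *Runx1* at 29.1, 27.6 and 26.9, *Gata1* at 13.4, 10.1 and 12.7 and its partner *Zfpm1*, which encodes FOG-1, at 14.1, 14.2 and 15.6. *Gata2*, used by basophils, mast cells and progenitors, exceeded *Gata1* in every library at 62.4, 51.7 and 78.7. *Gata3* was below 1 throughout.

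Of 23 cytokine receptor genes, 22 were detected, with a median of 22.4 FPKM. *Cxcr4*, which holds cells in marrow, stood at 273, 230 and 224, *Csf2ra* and *Csf2rb*, the receptor chains for granulocyte-macrophage colony-stimulating factor, at 109, 161 and 125 and at 104, 97.2 and 122, and *Csf3r*, the receptor for granulocyte colony-stimulating factor, at 78.6, 92.0 and 129. *Csf2ra*, *Csf2rb* and its close copy *Csf2rb2* had counts that were not whole and are uncertain. *Ifngr1*, an interferon gamma receptor chain, was nearly constant at 125, 127 and 122. *Epor* was the lowest of the receptors and the only one below 1 in every library.

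The study links MKs to bone, so 21 genes of secreted factors tied to bone were read. Of 19 measured, 8 were detected and 9 were below 1 in every library, and *Tnfrsf11b* and *Shbg* were not analysed here. The 4 highest were *Osm*, oncostatin M (164, 249 and 247 FPKM), *Il6* (288, 176 and 119), *Tgfb1* (142, 166 and 182) and *Il1b* (150, 129 and 127), followed by *Tnf* (123, 140 and 76.5). Library 1 was the highest for *Il6* and *Il1b* and the lowest for *Osm* and *Tgfb1*. *Igf1*, *Bmp2*, *Bmp4*, *Bmp6*, *Lox*, which crosslinks collagen, and *Tnfsf11*, which encodes the osteoclast factor RANKL, were each below 1 in every library. The platelet-derived growth factor genes *Pdgfa* and *Pdgfb* were also below 1.

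All 27 core autophagy genes were detected, with a median of 23.2 FPKM. The floxed gene *Becn1* stood at 84.5, 72.2 and 81.9 FPKM (mean 79.5 ± 6.503 SD, n = 3) and ranked 1190, above *Itga2b* in every library. The highest were *Lamp1*, a lysosomal membrane protein (306, 399 and 331), *Sqstm1*, the cargo receptor p62 (381, 228 and 169), *Gabarap*, an Atg8 family member (237, 232 and 193), and *Tax1bp1*, another cargo receptor (190, 128 and 120). *Sqstm1* and *Tax1bp1* were highest in library 1 and *Lamp1* lowest there. *Atg5* (18.5, 21.8 and 18.9) and *Atg7* (34.7, 33.2 and 38.5), of the conjugation machinery, differed little between libraries.

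A set of 17 immediate-early and inflammatory genes was added after the values were seen, because several of its members stood among the most abundant regulators. All 17 were detected and 15 had a mean of at least 100 FPKM, against 63.4% and 5.57% of all genes. Because the set was chosen for abundant members, these counts largely follow from the choice. *Zfp36*, which destabilises cytokine mRNA, stood at 789, 1123 and 1206, the AP-1 gene *Fos* at 695, 1015 and 1172, the chemokine gene *Ccl3* at 784, 1040 and 962 and the AP-1 gene *Junb* at 733, 764 and 786. *Fos*, *Jun*, *Dusp1* and *Egr1* were lowest in library 1, whereas *Nr4a1*, *Nr4a2*, *Nr4a3*, *Il6* and *Cxcl2* were highest there, so the set did not move as a block. *Nr4a3* stood at 36.3, 9.35 and 4.07. A set of 9 integrin and CD45 genes was added in the same way. *Itgb2*, the beta chain of leukocyte integrins, stood at 353, 299 and 357, *Itgam*, which encodes CD11b, at 222, 153 and 219, and *Ptprc*, which encodes CD45, at 228, 166 and 195. *Itgb2* was 13.9, 20.2 and 15.8 times *Itgb3*.

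The control libraries agreed closely on most genes. The biological coefficient of variation, the spread between replicates beyond counting error, was 17.8% (edgeR common dispersion, 11870 genes) and fell to 14.8% without library 1. Over genes with a mean FPKM of 30 to 100, the median coefficient of variation was 12.3%, against a counting error of 2.36% at their read counts. For the 287 genes at 300 FPKM or more, the median was 17.9% against 1.01%, so in abundant genes nearly all of the spread lay beyond counting. At 1 to 3 FPKM, where the median of the MK-restricted list lies (2.13), it was 20.5% against 11.3%. Pairs of libraries differed at least 2-fold in 1.55% (1 and 2), 1.83% (1 and 3) and 0.429% (2 and 3) of the 6762 genes at 10 FPKM or more.

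**Figure D4:**
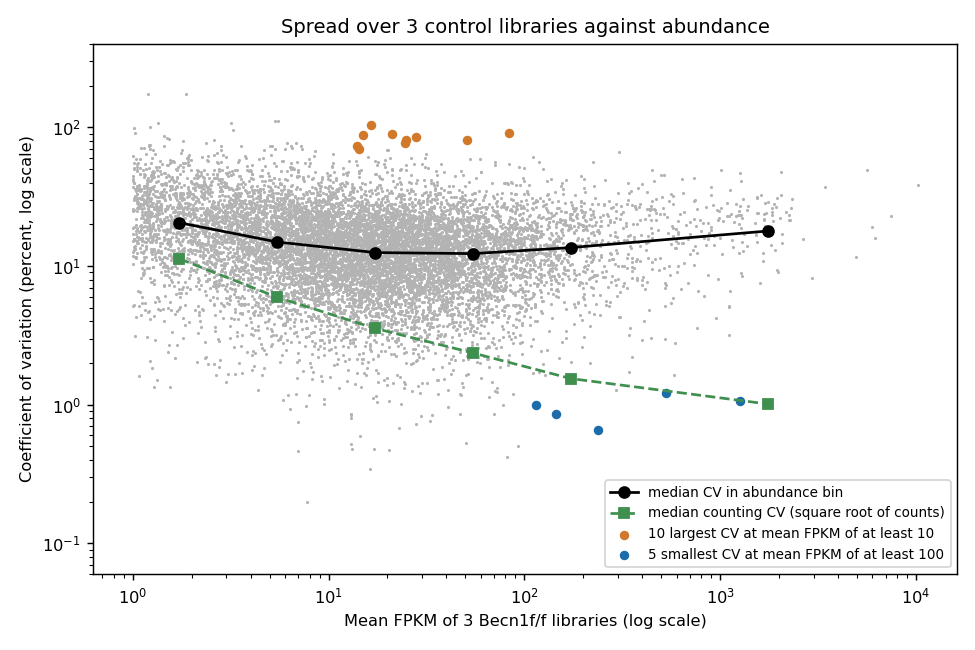
Coefficient of variation over the 3 *Becn1*f/f libraries (percent, log axis) against mean FPKM (log axis) for genes with a mean of at least 1, with 1 grey point per gene. The median in each abundance bin (black) runs between 12.3% and 20.5%, the part due to counting (green dashes) falls from 11.3% to 1.01%, and the 10 most variable and 5 steadiest named genes are coloured.

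The 10 genes with the largest coefficient of variation at a mean of at least 10 FPKM were all highest in library 1, as were 45 of the first 50. Among them were *Nr4a3*, *Serpinb2*, *Lmna*, *Ankrd33b*, *Gzmb*, *Ahr*, *Sgms2*, *Dennd4a* and *Olr1*. *Serpinb2*, a protease inhibitor of activated monocytes, stood at 171, 40.2 and 38.7, and *Lmna*, which encodes the nuclear lamins A and C, at 42.9, 11.3 and 9.25. *Gzmb*, a granule protease of cytotoxic cells that basophils and mast cells can also make, stood at 54.9, 21.0 and 8.24, and *Ahr*, the aryl hydrocarbon receptor, at 48.0, 12.5 and 14.0. Library 1 exceeded the mean of the others by 3.04 to 5.41 times over these 10 genes.

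Among the 5 steadiest genes at a mean of at least 100 FPKM were *Hnrnpa3* and *Hnrnpa2b1*, which bind nuclear RNA, *Rad21*, a subunit of cohesin, and *Lgals9*, galectin-9. *Hnrnpa3* stood at 239, 238 and 236 FPKM and *Rad21* at 146, 144 and 144. Such values show how closely 3 libraries can agree, but the genes were picked as the extremes of many, and the counts of *Hnrnpa3* and *Rad21* were not whole.

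The difference of library 1 was uneven across lineages. Detected eosinophil genes had a median log2 ratio of 1.07 of library 1 over the mean of the others, and all 12 were above 0. The median was 0.28 for late neutrophil genes, with 16 of 20 above 0, and 0.06 for primary granule genes, with 8 of 12 above 0. The 16 detected MK-restricted genes had a median of 0.34 and ran from -0.86 to 1.73, with 10 above 0. The median was 0.26 for erythroid genes, with 11 of 14 above 0, and 0.21 for basophil and mast cell genes, with 7 of 9 above 0. The median was -0.18 for monocyte genes, with 4 of 14 above 0, and -0.21 for proliferation genes, with 1 of 18 above 0. Over all detected genes it was -0.09, with 4058 of 10516 above 0, and the middle 90% of genes ran from -0.60 to 0.56. The counts above 0 in each list are to be read beside that share, which the monocyte count is near. For the counts of list members highest or lowest in library 1 given earlier, the share over all genes was not worked out. These ratios are of FPKM, and the length by which counts of the short genes *S100a8*, *S100a9* and *Rpl41* were divided was smallest in library 1. The part of this length, sorting, handling or the animal in the difference of library 1 was not tested.

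**Figure D5:**
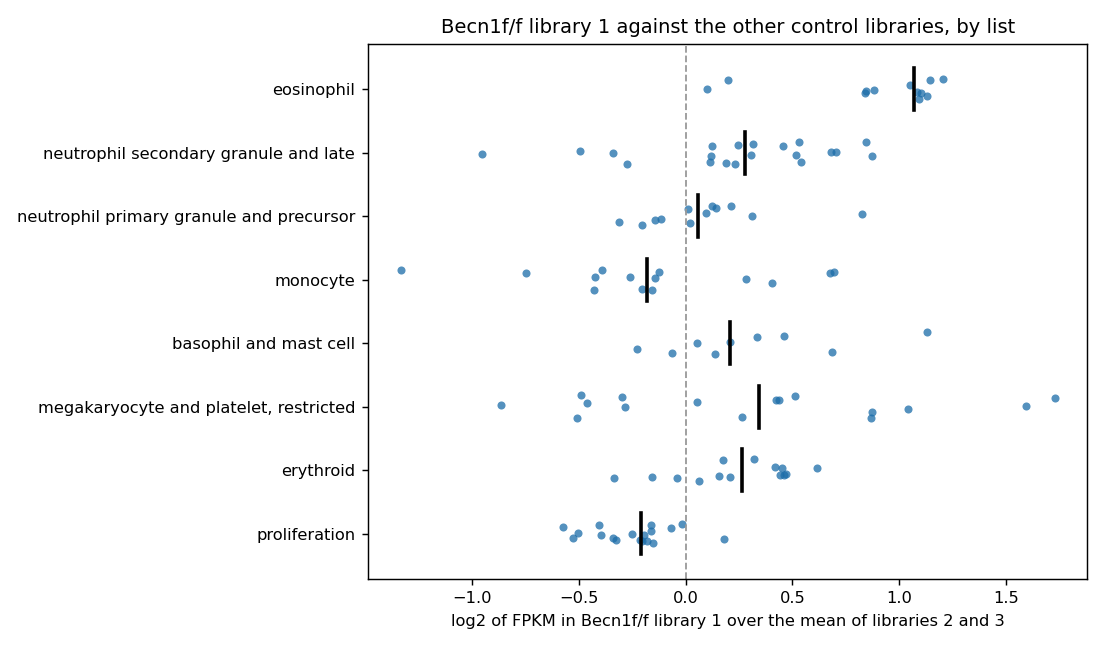
Log2 ratio of FPKM in *Becn1*f/f library 1 to the mean of libraries 2 and 3 for the detected genes of 8 lists, with 1 point per gene and a black bar at the list median. Eosinophil genes sit at a median of 1.07 and proliferation genes at -0.21, and the dashed line marks equal levels.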

How the data were processed

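RNA of sorted BM MKs was sequenced by BGI on the DNBSEQ platform, and 3 *Becn1*f/f libraries were read here. The authors removed low-quality, adapter and unknown-base reads and mapped the rest with HISAT. The submitters' processing notes also name Bowtie2 and the builds GRCm39 and mm39, without roles. The authors deposited an estimated count, which is not whole for 10.6% to 11.0% of genes per library, and an FPKM value, scaled by them for length and library size. The counting tool is not given in the sources used here. The 22 other columns of per-sample values, 4 of them under a library name that matches no sample, and 8 columns of group means were not used.

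Groups were taken from the sample labels. Detection meant an FPKM of at least 1 in every control library. No test was made, since 1 group has no comparison; values are given per library with mean and SD. Counts were rounded, filtered with edgeR's expression filter, scaled by TMM and fitted without covariates for the dispersion (edgeR 4.0.16, R 4.3.3), a step tested on simulated data. Intervals and floors cover counting error only. Symbols turned into dates (24) were restored by gene ID from RefSeq. Promoters and gene order came from RefSeq on GRCm38.p6, a build other than the submitters', with 13156 of the 16579 genes matched to a promoter.

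Genes were named by rule: *Itga2b*, *Mpo*, *Prg2* and *Becn1*; the 20 highest by FPKM and the 10 highest by counts; in each list up to 4 of the highest members and defining members below an FPKM of 1; the 10 most variable genes at a mean of at least 10 FPKM and the 5 steadiest at 100 or more. Some genes that fall under this rule or in these lists are not reported here. Further list members and the ratios between genes were chosen after their values were seen. The lists and the choice of libraries were made with earlier results of these data known. The alternatives were other detection limits, shares of counts, lists without their highest member, size factors of DESeq2 1.42.0, no filter, another pseudocount and leaving out each library.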

Additional observations from a re-analysis of the deposited data

How the results depend on the processing

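Alternatives that left a value within 1 SD of the 3 libraries, or a count within 1.5 times, are not given singly, and these include every detection limit, both changes of scaling or filter in the dispersion, and leaving out libraries, apart from those named here. The biological coefficient of variation was 14.8% without library 1 and reached 19.5% without another. By share of estimated counts, the 20 highest genes held 6.57%, and 8.70% of FPKM when only genes with an effective length of at least 500 bases were ranked, a setting chosen after seeing the data. By share of counts, the means were 0.321% for the MK-restricted list, 0.816% for primary granules, 1.43% for late neutrophils, 0.710% for eosinophils, 0.211% for basophils and mast cells, 1.17% for monocytes, 0.0461% for macrophages, 0.0876% for erythroid genes, 0.0302% for plasma cells, 0.0546% for stem and progenitor genes, 0.0135% for endothelium, 0.0177% for stroma and bone and 0.0119% for osteoclasts. Without its highest member, each list fell by construction, to 0.0218%, 0.840%, 3.32%, 0.943%, 0.185%, 0.603%, 0.0248%, 0.248%, 0.00824%, 0.0194%, 0.00131%, 0.000625% and 0.00202% in the same order, and the dendritic cell list to 0.117%. The MK-restricted list stayed below the monocyte, late neutrophil, eosinophil and primary granule lists under both changes, but its place among other lists moved. By counts it was above the basophil and mast cell, erythroid, dendritic cell (0.154%) and shared MK (0.294%) lists. In FPKM these were above its 0.109%, at 0.361%, 0.373%, 0.184% and 0.239%. Without the highest member of each list, the macrophage and B lineage (0.0284%) lists were above it, which they were not in full. Leaving out library 1 moved the eosinophil share to 1.41%, with 2.15% as the highest value without another library. The mean correlation was 0.990 with a pseudocount of 0.1 and 0.983 over genes with a mean FPKM of at least 1. The ranking without mitochondrial genes was not run, since no gene symbol marks them. No paired analysis was possible because the results come from no test. Precision rests on 3 libraries of 16496379 to 17138006 estimated counts, and genes under about 1 FPKM rest on few reads.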

Other observations

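The sex of the mice is not given in the labels or methods read here. All 4 measured Y-linked genes were detected in every library. *Eif2s3y*, a translation initiation factor subunit, stood at 54.1, 43.6 and 41.2 FPKM, and *Ddx3y*, an RNA helicase, at 35.4, 18.4 and 22.0. *Kdm5d* stood at 4.77, 4.87 and 6.49, and *Uty* at 2.54, 2.27 and 3.06. Both are histone demethylase genes. *Xist* was not analysed here. By *Ddx3y* and *Eif2s3y* library 1 was the highest, and by *Kdm5d* and *Uty* library 3 was.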
